A study of Mus musculus with 8 samples.

Results

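The genes of the retinoid X receptors (Rxra, Rxrb and Rxrg), the retinoic acid receptors (Rara, Rarb and Rarg) and the vitamin D receptor (Vdr) were examined for open chromatin in alveolar macrophages (AMs), the resident macrophages of the airspaces. The data are ATAC-seq peak lists. In this assay a transposase inserts adapters wherever DNA is open, here in the nuclei of mature AMs sorted from the lavage fluid of adult mice. The 4 KO libraries (replicates 1_2, 1_3, 2 and 3) came from CD11cCre+ Rxrab fl/fl mice, in which Cre deletes the floxed Rxra and Rxrb alleles in cells that express CD11c, and the 4 WT libraries (replicates 1_2, 1_3, 3 and 4) came from CD11cCre- Rxrab fl/fl mice. Both groups therefore carried floxed alleles of Rxra and Rxrb on a C57BL/6J background, and the labels name no treatment. The deletion is not limited to AMs, since other CD11c-expressing cells such as dendritic cells also express the driver. Peaks of the 8 lists that overlapped the body of a receptor gene or the 20 kb on each side were merged where they shared a base, which gave 99 of the 82424 regions of the series. Of these, 92 had a peak in at least 2 libraries, out of 72711 such regions in all, and 59 had a peak in all 8 libraries, out of 47499. Regions were numbered by position within the window of each gene, so that Rxra_1 is the first region at Rxra. Values per library are given in the order of replicates 1_2, 1_3, 3 and 4 for WT and 1_2, 1_3, 2 and 3 for KO. Coordinates are 1-based on mm10.

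RXRs are nuclear receptors that bind DNA mostly as heterodimers, and the retinoic acid receptors and the vitamin D receptor are among their obligate partners. These dimers recognise direct repeats of a short half-site, and the spacing between the half-sites favours one partner over another: DR1 names repeats with a spacer of 1 base, and so on up to DR5 with a spacer of 5. Repeats of the DR5 type are the classical response elements of retinoic acid receptors, repeats of the DR3 type those of the vitamin D receptor, and the DR5 element at the start of Rarb is the textbook target of retinoic acid itself. Tissue macrophages respond to retinoids and to vitamin D.

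A selection of sequences is shown: both regions with a peak in every WT list and no KO list, the regions with an exact direct repeat of the kind this receptor family binds, and Rarg_9, the region with imperfect repeats whose summit tags passed the test. Each window spans 100 bases on either side of the summit, on the plus strand, in lower case, with any match to a direct repeat in capitals. None of the windows of this length overlaps an annotated exon, whereas the shorter stretch shown for Rarb_17 does. The half-site was written as A or G, then G, then G or T, then T, C and A, and was searched on both strands at spacings of 1 to 5 bases, with at most 1 of the 12 letters of the pair allowed to differ. Rxra_18 and Vdr_2 had a peak in all 4 WT libraries and in no KO library, and their windows held no such repeat.
Rxra_18, chr2:27744589-27744789: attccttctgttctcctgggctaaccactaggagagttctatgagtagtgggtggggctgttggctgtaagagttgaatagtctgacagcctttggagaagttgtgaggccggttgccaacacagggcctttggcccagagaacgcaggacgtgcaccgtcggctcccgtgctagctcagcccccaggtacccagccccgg
Vdr_2, chr15:97862779-97862979: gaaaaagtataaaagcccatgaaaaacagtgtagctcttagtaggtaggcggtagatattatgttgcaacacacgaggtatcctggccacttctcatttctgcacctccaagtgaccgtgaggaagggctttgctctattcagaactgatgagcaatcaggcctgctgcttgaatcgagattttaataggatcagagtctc
Vdr_6, with a peak in 3 WT and 0 KO libraries, held an exact DR5 on the minus strand, and Vdr_5, with a peak in 3 WT libraries and 1 KO library, held an exact DR1 on the minus strand.
Vdr_6, chr15:97890634-97890834: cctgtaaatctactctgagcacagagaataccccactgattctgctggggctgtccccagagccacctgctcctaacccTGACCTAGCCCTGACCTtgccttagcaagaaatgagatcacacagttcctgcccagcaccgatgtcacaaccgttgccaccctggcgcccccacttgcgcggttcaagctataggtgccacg
Vdr_5, chr15:97881517-97881717: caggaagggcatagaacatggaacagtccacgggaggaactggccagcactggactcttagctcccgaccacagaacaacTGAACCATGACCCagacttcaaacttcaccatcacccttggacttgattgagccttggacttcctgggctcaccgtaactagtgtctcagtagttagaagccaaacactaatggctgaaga
Rarg_9, which had higher summit tags in KO, held a pair of DR5 repeats on the minus strand, each with 1 mismatch.
Rarg_9, chr15:102247067-102247267: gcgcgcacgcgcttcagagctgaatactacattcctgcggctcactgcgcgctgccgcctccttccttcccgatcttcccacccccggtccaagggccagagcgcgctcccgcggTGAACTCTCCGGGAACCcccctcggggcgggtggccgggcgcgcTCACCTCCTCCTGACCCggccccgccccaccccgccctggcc
At the start of Rarb, the exact DR5 is given with its neighbouring bases alone, on the strand of the gene. The summit of Rarb_17 falls within this stretch and in an annotated exon of Rarb, 11 bases past a start in the gene models.
Rarb_17, chr14:16575507-16575536: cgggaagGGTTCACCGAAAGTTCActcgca

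An exact DR5 was thus found in 2 of the 92 receptor gene regions (2.17%), at Rarb_17 and Vdr_6, and in 92 of the 72711 regions of the series (0.127%). With 1 mismatch allowed, the shares were 4.35% and 1.62%. An exact DR1 was found in 1 of the 92 (1.09%) and in 0.237% of all regions, and no window of the 92 held an exact DR3, which 0.0674% of all regions did. Repeats with 1 mismatch were also found at Rarg_3 (DR5), at Rxra_10, Rxra_13 and Rxrb_8 (DR2) and at Rara_12 and Rarb_20 (DR4), whose sequences are not shown. Beside its exact DR5, Rarb_17 held another DR5 with 1 mismatch, at chr14:16575543-16575559 on the minus strand, outside the stretch shown. These matches are descriptions of letters within 100 bases of a summit and not of binding. Among the RefSeq promoters of the receptor genes in GRCm38.p6, taken upstream of the start, that of Rarb alone held an exact DR5, at 53 to 37 bases before the start at 16575476, and 0.0883% of the 32851 promoters of the table held one.

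The receptor genes differed widely in how much open chromatin they held. Per 100 kb of gene and flanks, regions called in 2 or more libraries numbered 23.0 at Rara, 17.6 at Rarg, 16.6 at Rxra, 15.03 at Rxrb, 12.5 at Vdr, 4.44 at Rarb and 2.46 at Rxrg, against a median of 4.93 over 21728 protein-coding genes. Rara was at the 99.0th percentile of these genes, Rxrg at the 34.1st. Some regions belong to neighbours, since the windows also hold Ring1, Slc39a7, H2-Ke6 and Col11a2 at Rxrb, Cdc6, Gjd3 and Top2a at Rara, Itgb7, Zfp740 and Gm9918 at Rarg, Hdac7 at Vdr and Top2b at Rarb. The Rxra and Rxrg windows hold no other protein-coding gene.

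The number of peaks called at each gene did not separate the genotypes. Rxra, the RXR isotype with the largest number of regions, had 19, 22, 18 and 18 peaks in WT and 20, 19, 16 and 18 in KO. Vdr had 10, 11, 11 and 11 peaks in WT and 8, 11, 8 and 8 in KO, a difference of -2 in the means (10.75 ± 0.5 in WT and 8.75 ± 1.5 in KO, SD, n = 4). The two-sided exact permutation p was 0.143. The single KO library with as many Vdr peaks as WT was replicate 1_3. For the other 6 genes the means differed by at most 1 peak, with p of 0.6 or more, where 4 against 4 libraries allow a smallest p of 0.0286. The groups overlapped at all 7 genes. Over the 17572 protein-coding genes with a peak in any library, every KO library had fewer peaks than every WT library at 2.04% of genes and more at 0.341%.

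**Figure D1:**
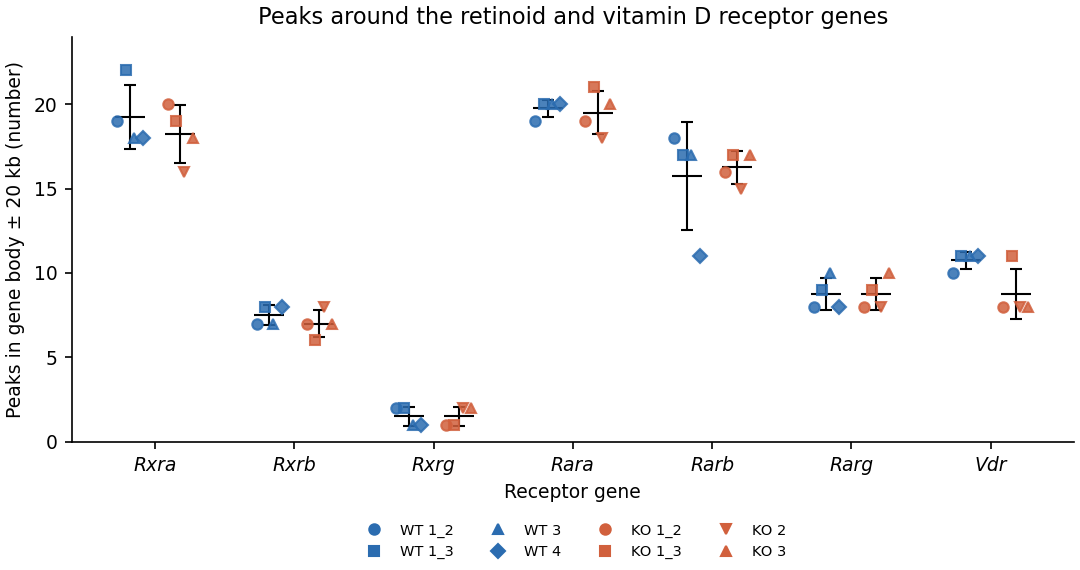
Number of peaks in each library (vertical axis) within the body of each receptor gene and 20 kb on each side (horizontal axis); symbols are single libraries, blue for WT and orange for KO, and black bars are the mean and SD of 4 libraries. The genotypes overlap at every gene, Vdr has 8 peaks in 3 of 4 KO libraries, and WT replicate 4 has 11 peaks at Rarb where the other 7 libraries have 15 to 18.

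Regions present in one genotype alone were few. Peaks in all 4 WT libraries and no KO library were found at 2 of the 92 regions, Rxra_18 and Vdr_2, where the share over all 72711 regions was 0.82%. The opposite pattern was found at 0 of the 92, with 0.285% over all regions. When 1 library was allowed to depart, the WT side gained Rxra_7, Rarb_9 and Vdr_6, giving 5 regions beside a share of 3.46% over all regions, and the KO side held 2, Rxra_1 and Rara_19, beside 1.2%. Of the 33 receptor gene regions with a peak in 2 to 7 libraries, 15 had more WT libraries, 12 more KO libraries and 6 equal numbers. Over the whole series these shares were 51.7%, 27.6% and 20.7%.

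Rxra encodes RXRα, one of the receptors whose gene was floxed. Its body covers chromosome 2, 27676440 to 27762957, on the plus strand, and 15 of its 21 regions seen in at least 2 libraries had a peak in all 8. The region at its 5′ end, Rxra_3 (27676752 to 27677903), had 32, 42, 38 and 36 summit tags in WT and 48, 39, 30 and 38 in KO. Summit tags are the overlapping read ends at a peak's highest point, worked back from the peak caller's fold and p-value. The promoter of Rxra was thus open in every library, and its genotype groups overlapped (KO minus WT 0.27 on the log2 scale, SE 0.17, adjusted p = 0.331 by limma). The strongest region of the gene, Rxra_13, was intronic, 38.9 kb from the 5′ end, with 326, 334, 375 and 334 tags in WT and 402, 310, 317 and 297 in KO. These values also overlapped. Over the 8 libraries, the promoters whose median-centred log2 tags ran most closely with Rxra_3 were those of Htt (r = 0.992), Lactb (r = 0.970) and Zbtb11 (r = 0.951). These are the highest of 11660 genes over only 8 values, and the source of the likeness was not tested.

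Rxra_18, whose sequence is given above, lies at 27744546 to 27744950 in an intron, 68.2 kb from the 5′ end. Its summit tags in WT were 38, 46, 38 and 42, and no KO list held a peak there. The values for WT lay close together and well above the 14 to 20 tags that a KO library would have needed at the same local background to be called at its summit. A list omits any stretch shorter than 200 bp above the threshold, so an absent peak says only that the threshold was not met over that length. The region lies near the floxed part of the gene. The genotyping primers P1 (accaagcacatctgtgctatct) and P2 (caactgtataccccatagtgtt) match chr2:27741164-27741185 and chr2:27741767-27741788, in the exon at 27741053 to 27741203 and in the next at 27741764 to 27741943, and span 625 bp of the reference. Rxra_18 begins 2758 bp beyond this span and ends 3662 bp before the following exon at 27748612. The sources used here do not give the position of the other loxP site, so loss of DNA by recombination and loss of accessibility at Rxra_18 cannot be told apart. No list, WT or KO, held a peak over the exons matched by these primers or over the Rxrb intron matched by the primers XO141 (tcctccactgcacacagccc) and WS55 (ccgggagggctgactttcatc), at chr17:34034504-34034523 and chr17:34034708-34034728. The lists therefore offered no direct check of either deletion.

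Other Rxra introns departed less. Rxra_7, 16.9 kb from the 5′ end, had 38, 48, 34 and 35 tags in the WT libraries and 36 in KO replicate 1_2, with no peak in the other 3 KO lists. Its neighbour Rxra_8, whose summit lay 17.4 kb from the 5′ end, had 74, 85, 88 and 64 tags in WT and 104, 77, 91 and 74 in KO. After centring, Rxra_8 was higher in KO by 0.36 on the log2 scale (SE 0.12, adjusted p = 0.0443 by limma), although the groups overlapped. The call at Rxra_8 was lost with most alternatives, the value without WT replicate 4 being 0.37 with an adjusted p of 0.0510. On the KO side, Rxra_1, 13.5 kb upstream of the gene, was called in KO alone, with 15, 14 and 16 tags, and was missing from replicate 2 of KO.

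**Figure D2:**
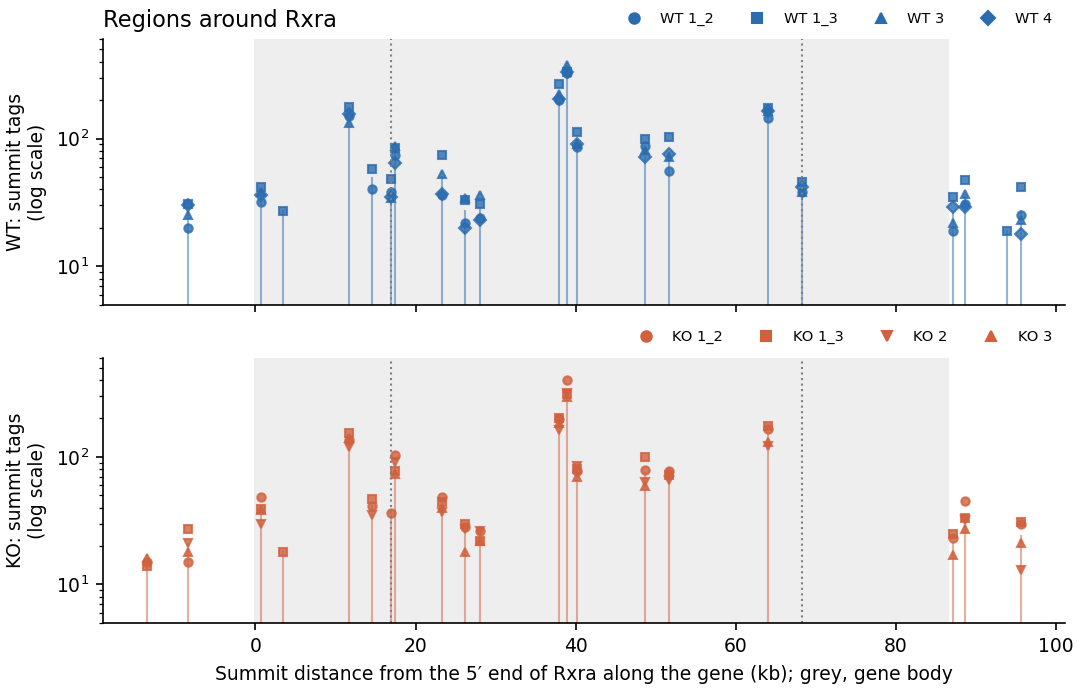
Summit tags (vertical axes, log scale) of each library at every region around Rxra, against the distance of the summit from the 5′ end of the gene in kb; the upper panel holds WT, the lower KO, thin lines reach the mean of the libraries with a peak, and the gene body is grey. Dotted lines mark Rxra_7, with a peak in 4 WT libraries and 1 KO library, and Rxra_18, with 38 to 46 tags in WT and no KO peak.

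Rxrb encodes RXRβ, the other floxed receptor, and lies in a gene-dense stretch of chromosome 17 (34031812 to 34038399, plus strand). Its promoter region Rxrb_4 (34031472 to 34032510), shared with the start of the zinc transporter gene Slc39a7, had 109, 143, 135 and 119 tags in WT and 122, 127, 119 and 99 in KO. The promoter was open in all 8 libraries, with overlapping groups (KO minus WT 0.10 on the log2 scale, SE 0.10, adjusted p = 0.583 by limma). With its summit in an intron of Rxrb, Rxrb_5 had peaks of 45 and 37 tags in WT replicates 1_3 and 4 and of 42 and 40 tags in KO replicates 1_2 and 2. None of the 6 regions tested at Rxrb passed the threshold, and the smallest adjusted p by limma was 0.469. Rxrg, the isotype of muscle and brain, was nearly closed. It had no region within 1 kb of a start, and the single region seen in all 8 libraries, Rxrg_2 in an intron, had 11, 15, 18 and 12 tags in WT and 14, 16, 15 and 11 in KO, close to the 6 to 9 tags of the smallest summits of the lists.

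Rara, the retinoic acid receptor gene that is expressed most broadly, held the densest open chromatin. Its body covers chromosome 11, 98927818 to 98974942, on the plus strand, with alternative starts. The region at the internal start 31.8 kb from the 5′ end, Rara_16, had 216, 310, 288 and 253 tags in WT and 272, 259, 249 and 209 in KO. Rara_5, at a start 9.78 kb from the 5′ end, had 173, 188, 196 and 166 tags in WT and 200, 161, 182 and 182 in KO. Both were strongly open in every library, with overlapping groups. Rara_7 had 171, 211, 220 and 161 tags in WT and 180, 179, 167 and 145 in KO. Rara_17 had 60, 74, 49 and 43 in WT and 47, 56, 60 and 45 in KO, and Rara_6 had 83, 108, 96 and 87 in WT and 88, 81 and 75 in KO, without a peak in replicate 2. Of the 15 Rara regions tested, none passed the threshold (smallest adjusted p = 0.126 by limma, 3 at an unadjusted p under 0.05), and their median difference was 0.04 and changed sign with the scaling. Rara_19, in an intron 44.6 kb from the 5′ end, had 20, 18, 20 and 18 tags in the KO libraries and 30 in WT replicate 4, with no peak in the other 3 WT lists.

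Rarb, the retinoic acid receptor gene that retinoic acid induces in many cells, spans chromosome 14, 16430839 to 16819156, on the minus strand. Its open regions lay 203 to 385 kb from the 5′ end of this long body, most of them in introns. Rarb_5 to Rarb_17 lay close together, between 16526153 and 16575870, up to the internal start at Rarb_17, 243.6 kb from the 5′ end. Rarb_14, 255 kb from the 5′ end and 11.4 kb downstream of that internal start, was among the strongest receptor gene regions. It had 345, 407, 356 and 255 tags in WT and 343, 318, 312 and 284 in KO. The promoter region with the DR5, Rarb_17 (16575226 to 16575870), had 55, 65, 48 and 41 tags in WT and 44, 46, 33 and 59 in KO. The start of Rarb that carries the DR5 was thus open in both genotypes, with a difference of 0.01 on the log2 scale (SE 0.17, adjusted p = 0.984 by limma). All 9 Rarb regions tested were higher in KO with centring on the median or quantile normalisation and 8 of 9 with scaling by background tags, and 3 passed the threshold with centring. Rarb_8 had 96, 108, 97 and 37 tags in WT and 96, 122, 94 and 108 in KO, a difference of 0.63 (SE 0.15, adjusted p = 0.00293 by limma). Rarb_10 had 70, 96, 54 and 33 in WT and 81, 84, 69 and 66 in KO, a difference of 0.55 (SE 0.15, adjusted p = 0.00933). Rarb_6 had 119, 157, 129 and 90 in WT and 148, 132, 129 and 116 in KO, a difference of 0.32 (SE 0.10, adjusted p = 0.0247). In each of these, WT replicate 4 held the lowest value.

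WT replicate 4 had fewer peaks at Rarb than any other library. It had 11 Rarb peaks where the other WT libraries had 18, 17 and 17 and the KO libraries 16, 17, 15 and 17. It lacked a peak at 5 of the 16 Rarb regions that the other 3 WT libraries shared (Rarb_1, Rarb_9, Rarb_11, Rarb_15 and Rarb_18), where over the series it lacked one at 6.51% of the regions so shared. Its centred tags were below the mean of the other WT libraries at 9 of 9 regions, by 1.05 on the log2 scale at Rarb_8, by 0.73 at Rarb_10 and by 0.06 to 0.22 at the other 7. The median of these gaps was 0.17, and 76 of 1373 genes with 9 or more such regions had a lower median for this library. Without this library Rarb_8 was still higher in KO (0.37, SE 0.12, adjusted p = 0.0311 by limma), whereas Rarb_10 (0.37, adjusted p = 0.0652) and Rarb_6 (0.27, adjusted p = 0.0659) no longer passed. Rarb_9, between Rarb_8 and Rarb_10, went the other way, with 33, 65 and 28 tags in the first 3 WT libraries and no peak in WT replicate 4 or in any KO list.

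**Figure D3:**
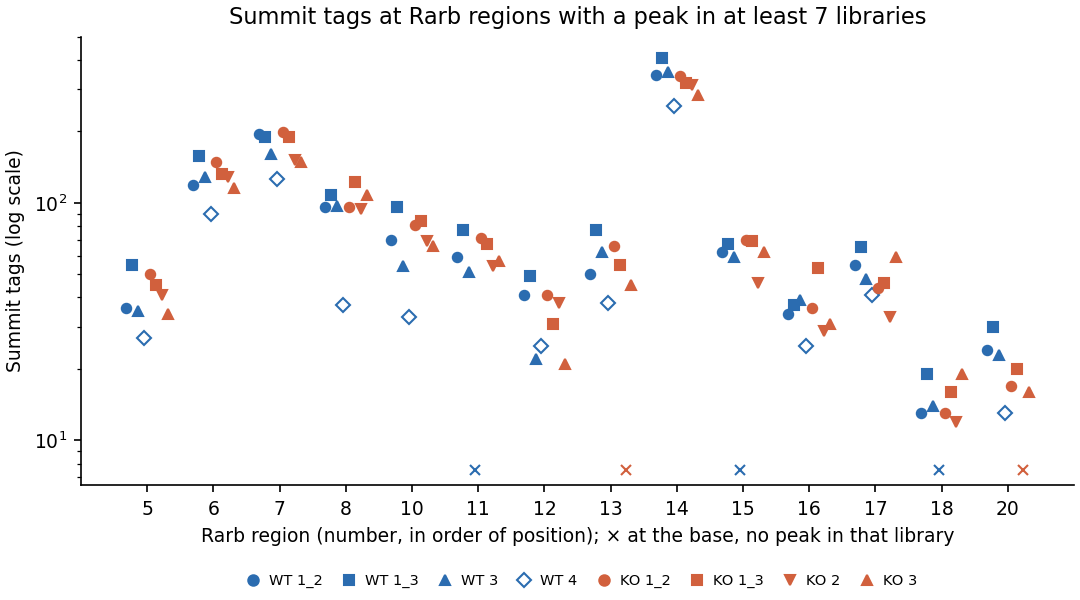
Summit tags (vertical axis, log scale) of the 8 libraries at the Rarb regions called in 7 or 8 of them (horizontal axis, region numbers in order along the chromosome); blue is WT, orange KO, open diamonds are WT replicate 4, and crosses at the base mark a library without a peak. WT replicate 4 has the lowest WT value at Rarb_8, with 37 tags against 96 to 108 in the other WT libraries, and lacks a peak at Rarb_11, Rarb_15 and Rarb_18.

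Rarg, best known in skin and other epithelia, covers chromosome 15, 102234938 to 102257517, on the minus strand. Its strongest region was intronic, Rarg_6, with 154, 145, 159 and 108 tags in WT and 157, 128, 138 and 131 in KO. At the outer start of the gene, Rarg_10 was called in WT replicate 3 with 10 tags and in KO replicate 2 with 13, and in no other library. The internal start was the open one. Rarg_8 had 59, 63, 50 and 51 tags in WT and 53, 48, 56 and 50 in KO, with overlapping groups. Its neighbour Rarg_9 (102246896 to 102247985), which holds the pair of imperfect DR5 repeats, had 50, 89, 80 and 65 in WT and 91, 87, 83 and 72 in KO. After centring, Rarg_9 was higher in KO by 0.47 on the log2 scale (SE 0.13, adjusted p = 0.0116 by limma). Without WT replicate 4 the difference was 0.53 (SE 0.14, adjusted p = 0.00550 by limma). The call was lost without WT replicate 1_2, the lowest WT library there (0.33, adjusted p = 0.0920), with scaling by background tags (0.41, adjusted p = 0.210), with replicates 1_2 and 1_3 averaged (0.41, adjusted p = 0.0520) and with KO averaged in the pairs 1_2 with 1_3 and 2 with 3 (0.47, adjusted p = 0.0841).

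Vdr encodes the vitamin D receptor and covers chromosome 15, 97854425 to 97910630, on the minus strand. Its promoter regions were open throughout. Vdr_8 had 64, 81, 60 and 42 tags in WT and 59, 59, 53 and 62 in KO, and Vdr_9 had 29, 56, 60 and 36 in WT and 44, 51, 40 and 37 in KO. The groups overlapped at both, and none of the 7 Vdr regions tested passed the threshold (smallest adjusted p = 0.267 by limma, 0 at an unadjusted p under 0.05).

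The differences at Vdr lay in weaker intronic regions. Vdr_2 (97862730 to 97863041), 47.8 kb from the 5′ end, had 18, 20, 18 and 21 tags in the WT libraries and no KO peak, where 6 to 8 tags would have reached the threshold at the summit of a KO library. Vdr_6 (97890407 to 97890884), with the exact DR5, had 16, 22 and 13 tags in WT, without a peak in replicate 3, and no peak in KO. Vdr_5, with the exact DR1, had 29, 48 and 38 tags in WT, without a peak in replicate 4, and 29 in KO replicate 1_3. Vdr_7 had 29, 24 and 21 tags in WT replicates 1_3, 3 and 4 and 19 in KO replicate 1_3. Vdr_11 went the other way, with 35 and 25 tags in WT replicates 3 and 4 and 25, 20 and 15 in KO, without a peak in replicate 2. Thus 4 of the 5 Vdr regions with a peak in 2 to 7 libraries had more WT libraries, beside 51.7% of such regions over the series. The peak count at Vdr depended on the lists used. With peaks of a −log10 q-value of at least 5, Vdr had 10, 11, 11 and 11 peaks in WT and 8, 9, 8 and 8 in KO (two-sided exact permutation p = 0.0286, which is the lowest value 4 against 4 libraries allow), where 2.31% of genes had every KO library below every WT library. With lists of equal length the counts were 10, 9, 11 and 11 in WT and 8, 8, 8 and 7 in KO (exact permutation p = 0.0286), where 1.37% of genes showed this order. Leaving out KO replicate 1_3, the one KO library that overlapped WT in the full lists, gave a difference of -2.75, and 3.65% of genes had every remaining KO library below WT. The groups still overlapped when any other library was left out.

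**Figure D4:**
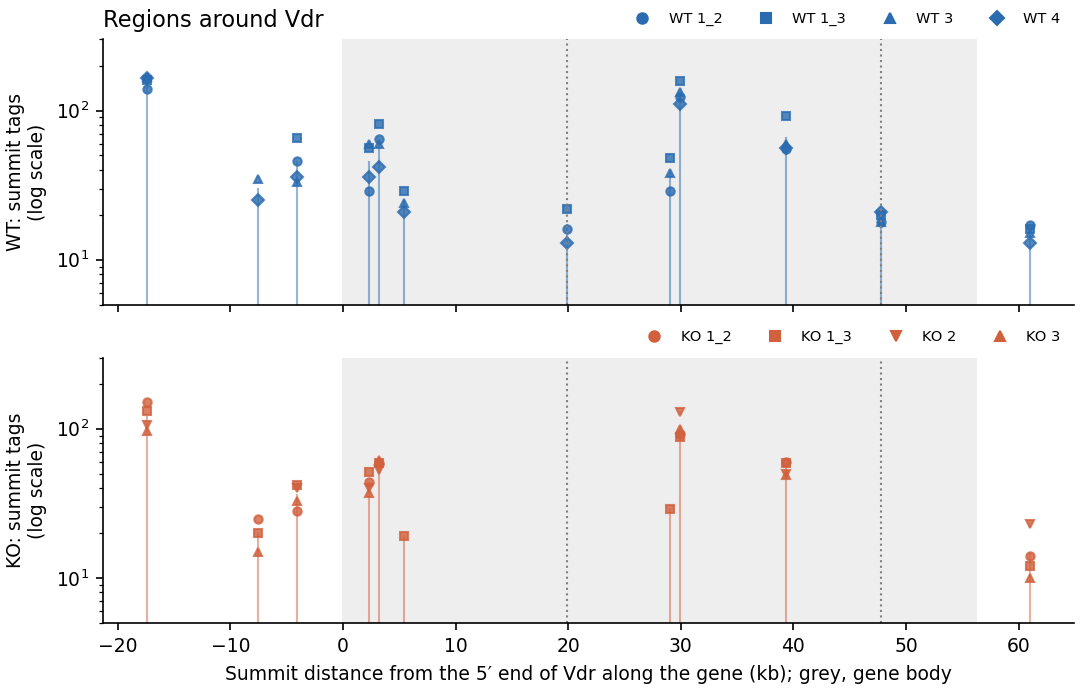
Summit tags (vertical axes, log scale) of each library at every region around Vdr, against the distance of the summit from the 5′ end along the gene in kb; the upper panel holds WT, the lower KO, and the gene body is grey. Dotted lines mark Vdr_6, with 13 to 22 tags in 3 WT libraries, and Vdr_2, with 18 to 21 tags in 4; neither has a KO peak.

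Across the 59 receptor gene regions tested, 5 were higher in KO (8.475%) and 0 lower, whereas over all 47499 regions 5.81% were higher and 7.03% lower (limma, Benjamini-Hochberg adjusted p under 0.05 over all regions). At an unadjusted p under 0.05, 10 of the 59 were higher (16.9%) and 0 lower, where 14.1% of all regions were higher and 12.1% lower. The median difference was 0.11 on the log2 scale for the receptor gene regions and 0.04 for all regions. When libraries were scaled by their background tags instead, 1 of the 59 was called, Rarb_8, and the calls over all regions changed from 2759 higher and 3337 lower to 575 and 1988. The KO libraries fell into the pairs 1_2 with 1_3 and 2 with 3, whose tags differed from each other by no more than counting noise. The chi-square per region was 0.980 and 1.01 within these pairs, against 1.10 to 1.28 between them. Among WT libraries it was 1.12 to 1.99, with 1.34 between replicates 1_2 and 1_3. Summits within the KO pairs lay no closer together than those of other libraries (medians of 12 to 13 bp among KO libraries, 11 to 13 bp among all). Counted as 1 sample each, the KO pairs left 0 of the 59 called by limma (7 at an unadjusted p under 0.05, smallest adjusted p = 0.0538 at Rarb_8), with 1006 higher and 2005 lower over all regions.

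**Figure D5:**
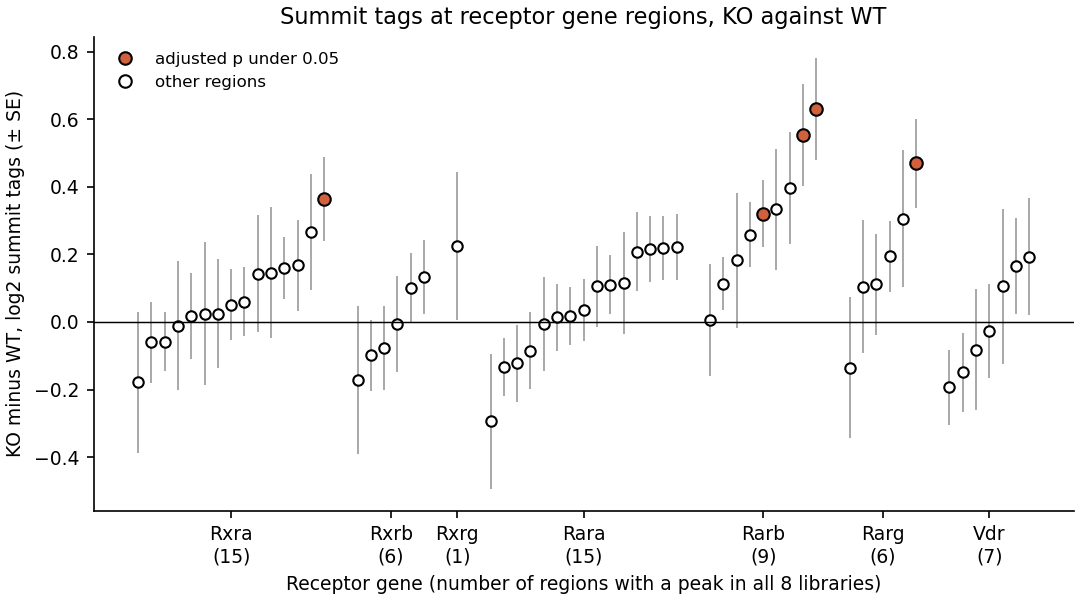
KO minus WT difference in log2 summit tags (vertical axis) with its SE at each receptor gene region with a peak in all 8 libraries, grouped by gene and sorted within it; filled points passed the adjusted threshold. The 5 filled points, all above 0, are Rxra_8, Rarb_6, Rarb_8, Rarb_10 and Rarg_9, and all 9 Rarb points lie above 0, as 8 do with scaling by background tags.

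Genes that make, carry and clear the ligands were read in the same way. Of 18 genes of retinoid handling, 13 had a region in at least 2 libraries, and of their 55 regions tested 3 were higher (5.45%) and 2 lower (3.64%) in KO, beside 5.81% and 7.03% over all regions. A region 1.52 kb downstream of the start of Dhrs9, a retinol dehydrogenase, had 104, 134, 106 and 89 tags in WT and 67, 76, 69 and 73 in KO (difference -0.37, SE 0.12, adjusted p = 0.0260 by limma). A region 1.94 kb upstream of Aldh1a2, a retinaldehyde dehydrogenase, had 101, 121, 118 and 82 in WT and 78, 79, 67 and 56 in KO (difference -0.37, SE 0.12, adjusted p = 0.0289). Raw tags, which are not scaled for depth, did not overlap between the genotypes at these regions, and they overlapped at the 3 higher regions named below. The share of all regions whose raw tags did not overlap is not given here. Aldh1a2 also held a region with peaks in the WT lists alone, over an exon 79.9 kb from its start (71295493 to 71295903 on chromosome 9; 15, 20, 25 and 16 tags), and the other such region lay in the window of Rbp4, the plasma carrier of retinol, within an intron of Ffar4 (12, 14, 11 and 13 tags). The 3 higher regions lay in the windows of the carotenoid-cleaving oxygenases, 1 at Bco1, inside an intron of Pkd1l2 (0.38, adjusted p = 0.00861), and 2 at Bco2 (0.57 with adjusted p = 0.0366 and 0.32 with adjusted p = 0.0285).

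Of the 7 genes of vitamin D handling, all had a region in at least 2 libraries, and of 35 regions tested 3 were higher (8.57%) and 0 lower in KO, beside the same 5.81% and 7.03% over all regions. Cubn, whose product takes up the vitamin D carrier, held 2 of them in introns. The first had 68, 74, 55 and 39 tags in WT and 97, 90, 57 and 52 in KO (0.53, SE 0.15, adjusted p = 0.0134 by limma), and the second differed by 0.31 (adjusted p = 0.0403). The third lay in the window of Cyp27b1, the enzyme that activates vitamin D, at the start of its neighbour Cdk4 (0.39, adjusted p = 0.00944). In the list of retinoid handling 2 of 74 regions, and in that of vitamin D 0 of 47, had peaks in the WT lists alone, beside 0.82% of all regions, and no region of either list had peaks in the KO lists alone, beside 0.285%. With scaling by background tags, or with the KO pairs averaged, limma called 0 regions of either list, and without WT replicate 3 it called 0 of the retinoid list.

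The labelled cell type was checked against promoter peaks. Of the 9 AM markers annotated, 7 (Itgax, Marco, Fabp4, Car4, Pparg, Mrc1 and Cidec) had a promoter peak in all 8 libraries, and Chil3 and Krt79 had none. Summed AM marker promoter tags, which are not scaled for depth, were 1046 to 1583 in WT and 983 to 1223 in KO. No promoter of the 5 alveolar type 2 cell markers had a peak. The same held for 4 of 5 T cell, 4 of 5 B cell, 4 of 5 neutrophil and 3 of 5 dendritic cell markers. Among 6 monocyte or interstitial macrophage markers, only C1qb had none. Pax5, Ccr2, C1qa and C1qc had a promoter peak, but none found in all 8 libraries. Peaks in all 8 libraries were found at Cd2, S100a8, Cx3cr1, Ly6c2, Flt3 and Zbtb46, and the part of cells of other types in the values above was not tested. Cd2, listed here as a T cell marker, is named by the study among the core genes of AMs. The lists held 60363 to 72484 peaks and the background was 1.12 to 2.26 tags per library.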

How the data were processed

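ATAC-seq peak lists of 4 WT and 4 KO libraries of AMs were used, 1 list per library, with groups taken from the sample titles. Per the labels and the study's methods, the authors trimmed reads (cutadapt), aligned them to mm10 (Bowtie2), removed duplicates, kept properly paired reads (SAMtools) and called peaks on each library with MACS3. The deposited lists give for each peak a ratio (fold of the summit over the local background), a −log10 p-value, a −log10 q-value and a display score that was not used. The largest q-value was 0.0465. The authors tested read counts with edgeR, which could not be fitted because the lists hold no counts.

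Under the caller's Poisson model, the fold and −log10 p-value of a peak fix its summit tags, which were solved for, and 100% of peaks gave whole tags within a relative error of 1e-05. Read totals are unknown, so depth is given as background tags, and a deeper library lists weaker peaks. Log2(tags + 0.5) of the regions found in all 8 lists had the median of its library subtracted and was compared with limma 3.58.1 (R 4.3.3; trended prior, Benjamini-Hochberg over 47499 regions; tested on simulated tags). Differences are on that log2 scale, which understates changes at weak regions. Peak counts were compared by exact permutation over the 70 labelings, two-sided. Gene models were GENCODE M21, as given with the reference, and sequence came from GRCm38. Primer sequences came from the study's supplement. Promoter regions had a summit within 1 kb of a start. The members, gene lists and tests were chosen with earlier results of these data known. The rule for named regions took those with at most 1 library departing from a one-sided pattern, those past the limma threshold and the promoter regions. The alternatives were other pseudocounts, scalings, thresholds, windows and merging rules, a replicate block, averaged replicates and each library left out. A figure legend of the study gives n = 4 per genotype for this assay, without saying whether replicates 1_2 and 1_3 came from different animals. The p-values therefore measure only the spread between these libraries. The labels give no batch, sex or age per library.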

Additional observations from a re-analysis of the deposited data

Results flagged for a closer look

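Peak counts and median tags of each receptor gene were screened for a library far from the other 3 of its genotype, by the ratio of its gap to the range of the group (Dixon's ratio at its 95% critical value). Of 28 sets of 4 libraries 4 were picked out. The critical value stands for about 1 in 20 for values without ties, so it gives no expected number for tied peak counts. At Rarb, WT replicate 4 had 11 peaks and the other WT libraries 17 to 18. At Vdr, KO replicate 1_3 had 11 peaks and each other KO library 8, and WT replicate 1_2 had 10 where each other WT library had 11. At Rara, WT replicate 1_2 had 19 peaks and each other WT library 20. In the Vdr and Rara sets the other libraries are tied, which puts the ratio at 1 whatever the gap. The last pair of sets differ by a single peak.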

How the results depend on the processing

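The number of receptor gene regions higher in KO was 5, and no alternative called any region lower. It was 5 with a pseudocount of 5 or with regions of at least 6 libraries, 4 with quantile normalisation, 3 with replicates 1_2 and 1_3 averaged, 1 with scaling by background tags and 3 to 6 when each library was left out. It was 0 with the KO pairs averaged, an alternative added after seeing the data. With the replicate block over the 6 libraries of shared names 4 were called (Rxra_13, Rara_8, Rarb_8 and Rarg_9), and 3 without the block, a fit also added after seeing the data. The labels do not say whether the shared names pair samples, and this was not tested. Correlations of deviations were low, 0.0555, 0.116 and 0.0368 for names 1_2, 1_3 and 3, although each of these libraries correlated best with its own name. Regions with peaks in WT alone numbered 2, or 5 when 1 library could depart and 2 to 3 when each library was left out. Regions with peaks in KO alone numbered 0, or 2 when 1 library could depart, and 0 to 1 when each was left out, the single region being Rara_19 without WT replicate 4 and Rxra_1 without KO replicate 2. Genes whose peak counts did not overlap numbered 0, or 1 (Vdr) at a −log10 q-value of at least 5, 1 (Vdr) with lists of equal length and 0 to 1 when each library was left out. The cause of these changes was not tested. Depth limits the lists to summits of at least 6 to 9 tags.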
